A study of Homo sapiens with 6 samples.

Results

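The proteasome is the protease that degrades ubiquitin-tagged proteins in the cytosol and nucleus. Its 20S core holds rings of alpha and beta subunits, with the proteolytic sites on PSMB5, PSMB6 and PSMB7, and its 19S cap recognises, unfolds and feeds in the substrate. Interferons induce alternative catalytic subunits, PSMB8, PSMB9 and PSMB10, which replace PSMB5, PSMB6 and PSMB7 in newly built particles to give the immunoproteasome, and the PA28 activator made of PSME1 and PSME2. The immunoproteasome is abundant in haematopoietic cells and is known for cutting peptides that fit MHC class I molecules.

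The genes described here were the protein-coding genes whose symbol is PSM, a letter A to G and a number, which covers the 20S and 19S subunits, activators, an inhibitor and assembly chaperones. Of 48 such symbols, 45 had a row among the 34371 features of the deposited table, and PSMC4, PSME1 and PSME2 were not analysed here. The comparison of inducible with constitutive subunits therefore had PSMB8, PSMB9 and PSMB10 on one side. On the other were 30 of the 31 constitutive core and cap subunits with such a symbol. The remaining 12 members with a row were activators, the inhibitor, chaperones and tissue-specific subunits. A low-count filter kept 42 of the 45 members and removed PSMB9, PSMA8 and PSMB11.

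The cells were ME-1, a human acute myeloid leukaemia line with the CBFB::MYH11 fusion. One group of 3 libraries came from cells transduced with a vector that overexpresses SPNS2, an exporter of sphingosine-1-phosphate, and the other group of 3 from cells transduced with the empty control vector. Both groups had been selected for infected cells before polyadenylated RNA was taken, so transduction and selection were shared by both groups, and both derive from a single line. The series title ties SPNS2 to sphingosine metabolism and MAPK signalling, and the comparison asks how its overexpression changed transcript levels. Nothing in the labels says that libraries of a group were separate cultures, so p-values here measure spread among libraries that may be technical in origin.

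Library totals were 32362204, 31361562 and 33540256 counts with SPNS2 and 38489992, 28605187 and 32468237 counts with the empty vector. The row of the optimized SPNS2 transgene held 25283, 24792 and 25752 counts in SPNS2 libraries and 9, 3 and 0 in empty vector libraries, which follows the labels. Levels below are in CPM, the usual unit of counts scaled to library size, and changes are log2 fold changes of SPNS2 over empty vector from edgeR's quasi-likelihood test, called at a Benjamini-Hochberg adjusted p under 0.05 over all 13308 tested features. Of these, 24.5% were called, 12.6% lower and 11.9% higher. Among the 8851 tested features with a mean of at least 10 CPM, a range that holds all tested members except PSMB8, 16.5% were called lower and 13.6% higher. The 8 myeloid markers summed to 27745 to 29215 CPM with SPNS2 and 27890 to 28337 CPM with the empty vector, most of it MPO; CD33, CD34 and LYZ fell (by 0.71, 0.25 and 0.32 on the log2 scale) and KIT rose (by 0.55). The 7 T and NK cell markers summed to 10.2 to 10.7 CPM with SPNS2 and 9.84 to 10.7 CPM with the empty vector, with CD2 at 0; within that sum CD3E rose (log2 fold change 0.87) and CD8A fell by 0.69 on the log2 scale. The 5 B cell markers summed to 12.9 to 14.0 CPM with SPNS2 and 10.4 to 11.5 CPM with the empty vector, with MS4A1 at 0, and CD79B rose (log2 fold change 0.53). The 5 erythroid markers stayed under 0.2 CPM in sum in each library, with HBB, HBA1 and ALAS2 at 0. The 7 stromal and epithelial markers summed to 144 to 147 CPM with SPNS2 and 123 to 131 CPM with the empty vector, nearly all of it EPCAM, which rose (log2 fold change 0.19), and KRT18 was at 0. The part of these differences in the results below was not tested.

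PSMB10, the inducible partner of PSMB7, was the only member called higher in SPNS2 cells, while the standard core and cap subunits leaned the other way by small amounts. PSMB10 rose by 15.4%, and 11 of 30 constitutive subunits fell (36.7%). Of all tested features 12.6% were called lower, and 16.5% of those with a mean of at least 10 CPM. The count of 11 dropped to between 5 and 10 when 1 library was left out. The falls of the 11 subunits ran from PSMD14, which fell by 6.14%, to PSMC3, which fell by 11.7%. PSMB8 and PSMB9, the other inducible catalytic subunits, were too scarce in both groups for a firm statement. In bulk RNA such as this, fewer cells of a type and less RNA per cell cannot be told apart.

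**Figure D1:**
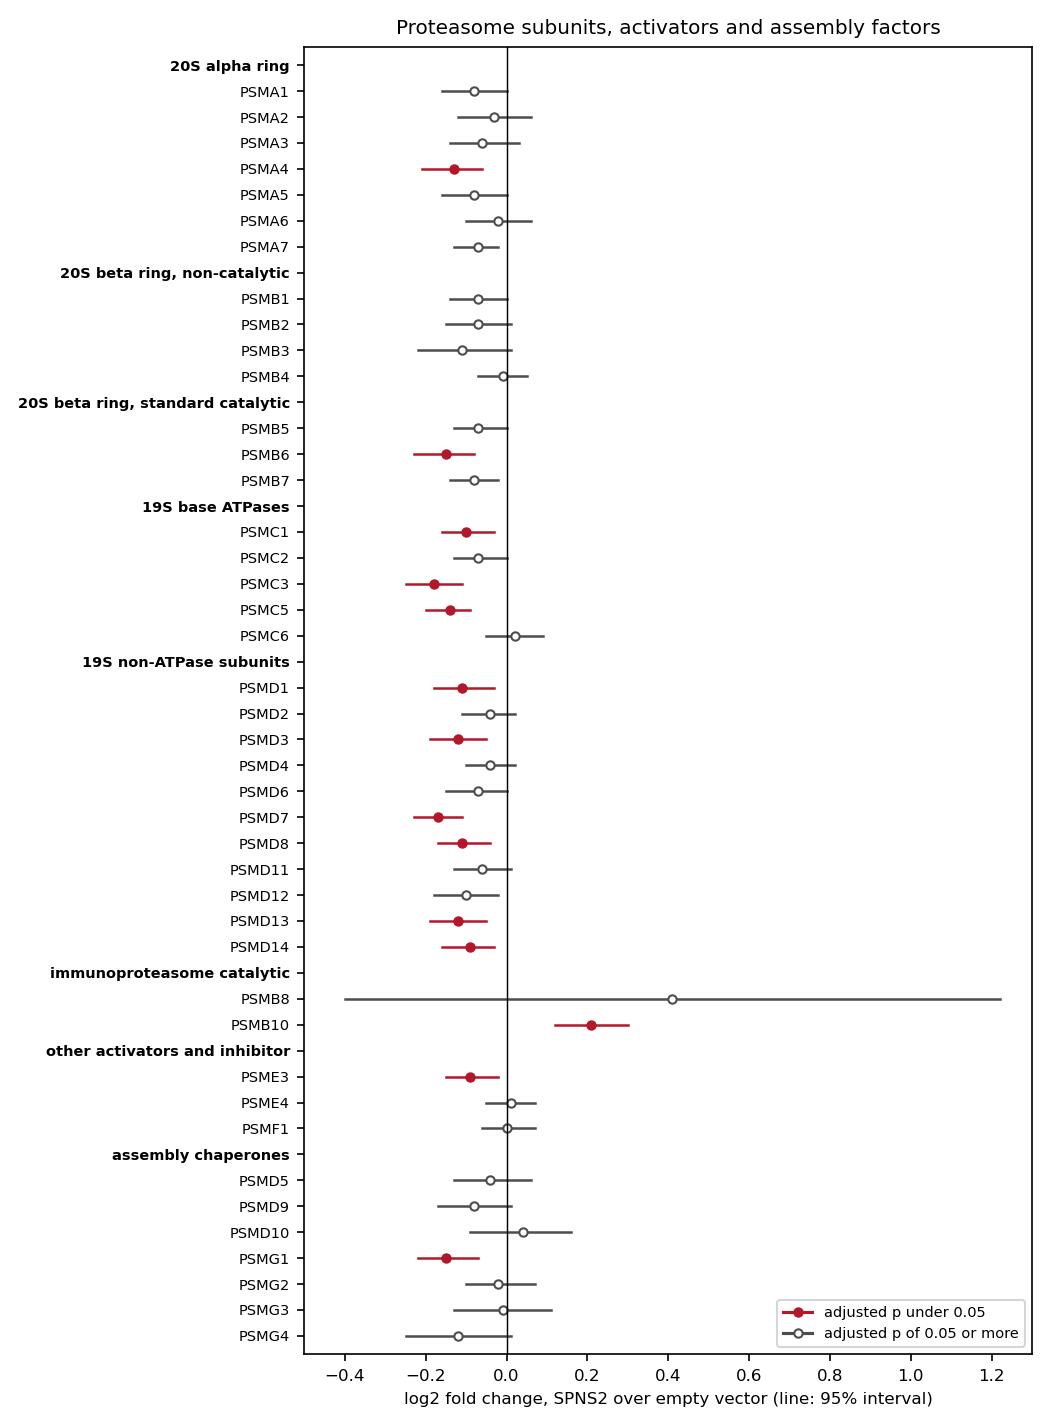
Log2 fold change of SPNS2 over empty vector (x axis) for the 42 tested members, grouped by role, with 95% intervals as lines. PSMB10 at 0.21 is the only filled point right of 0, and 13 filled points lie left of it, down to -0.18 for PSMC3.

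PSMB10 (ENSG00000205220.12) was at 40.1, 43.6 and 42.2 CPM in the SPNS2 libraries, against 36.2, 37.4 and 35.5 CPM in the empty vector libraries. The mean was 41.9 ± 1.74 CPM with SPNS2 and 36.4 ± 0.941 CPM with the empty vector (SD, n = 3 each). Each SPNS2 library lay above each empty vector library, as in 19.8% of all tested features. The log2 fold change was 0.21 (SE 0.0404, 95% interval 0.12 to 0.30, adjusted p = 0.00371 by edgeR), and the range over 14 other ways of processing was 0.18 to 0.24 with adjusted p from 0.0018 to 0.0236. AC040162.1, a row that overlaps exons of PSMB10 on the same strand, held 156, 122 and 189 counts with SPNS2 and 177, 102 and 134 with the empty vector, against 1300, 1368 and 1422 PSMB10 counts with SPNS2 and 1397, 1064 and 1144 with the empty vector. With those counts added to PSMB10 the log2 fold change was again 0.21.

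PSMB8 (ENSG00000204264.12), the inducible partner of PSMB5, was at 2.01, 0.637 and 2.43 CPM in the SPNS2 libraries, from 65, 20 and 82 counts, and at 1.25, 1.51 and 1.09 CPM in the empty vector libraries, from 48, 43 and 35 counts. SPNS2 library 2 was the lowest of all 6 and the other SPNS2 libraries were the highest, so the groups overlapped. The log2 fold change of 0.41 had a 95% interval of -0.40 to 1.22 (adjusted p = 0.464 by edgeR). It depended on SPNS2 library 2: without it the value was 0.80 (adjusted p = 0.0257). Without SPNS2 library 3 it was 0.06. PSMB8-AS1, which overlaps PSMB8 on the opposite strand and PSMB9 on the same strand, was not analysed here. The sources used here do not say whether counting used strand.

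PSMB9 (ENSG00000240065.8), the inducible partner of PSMB6, had 0 counts in all 3 SPNS2 libraries and 1, 2 and 10 counts in the empty vector libraries. A count of 0 over the SPNS2 group allows up to 3 counts, or 0.0308 CPM, for counting error only. With the 13 counts of the empty vector group taken as exact, PSMB9 would be 4.23-fold lower in SPNS2 at that limit. The counting error of those 13 counts is not covered, so 4.23 is not a firm lower bound. That value rests on empty vector library 3, since the other empty vector libraries held 3 counts together. PSMB9 did not pass the filter on low counts and was therefore not tested; without a filter its adjusted p was 0.0365. TAP1, which lies beside PSMB9 on chromosome 6 and pumps peptides into the endoplasmic reticulum, was at 6.11, 7.10 and 7.15 CPM with SPNS2 and 2.13, 1.65 and 4.31 CPM with the empty vector. TAP2, also in the MHC region, had 0 counts in all 6 libraries. How reads of this polymorphic region were assigned is not given in the sources used here, and its part in the low counts of PSMB8 and PSMB9 was not tested.

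The standard partners of these subunits lay slightly lower in SPNS2 libraries. PSMB7, the subunit with trypsin-like activity, was at 137, 133 and 135 CPM with SPNS2 and 143, 139 and 145 CPM with the empty vector. PSMB5, with chymotrypsin-like activity, was at 91.1, 93.1 and 92.6 CPM with SPNS2 and 95.0, 97.4 and 97.5 CPM with the empty vector. PSMB6, with caspase-like activity, was at 47.6, 48.4 and 47.3 CPM with SPNS2 and 52.4, 55.1 and 51.7 CPM with the empty vector. In all 3 genes each SPNS2 library lay below each empty vector library. The same order held in 20.3% of all tested features and 24.6% of those with a mean of at least 10 CPM. PSMB6 fell by 0.15 on the log2 scale (SE 0.0348, and edgeR gave an adjusted p of 0.00888). PSMB7 (-0.08, 95% interval -0.14 to -0.02, adjusted p = 0.0689) and PSMB5 (-0.07, adjusted p = 0.121) did not pass.

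**Figure D2:**
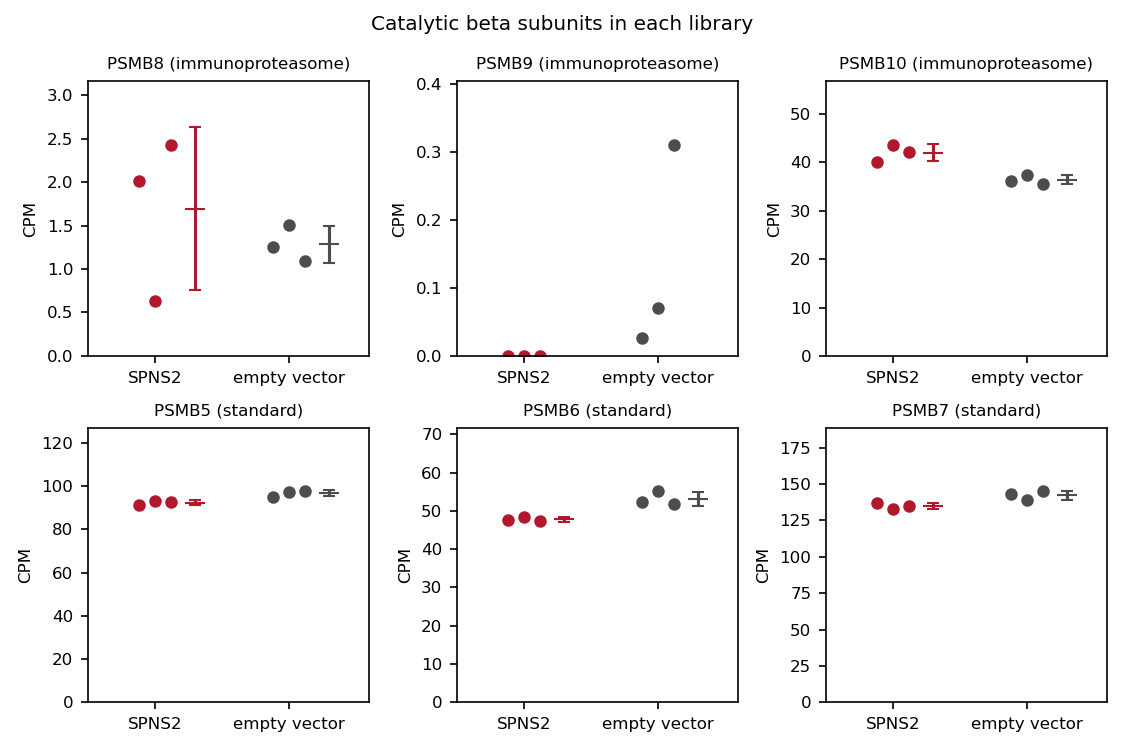
Level in CPM (y axes, each from 0) of the inducible catalytic subunits (top) and their standard partners (bottom) in each SPNS2 and empty vector library. Points are libraries and bars beside them are mean ± SD, left out for PSMB9, which is at 0 in SPNS2; PSMB10 lies higher in SPNS2, and PSMB5, PSMB6 and PSMB7 lie lower.

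Within a library, the counts of an inducible subunit as a percentage of those of its standard partner do not depend on how libraries are scaled. They are not corrected for transcript length and show a change, not which subunit is more abundant. PSMB10 counts were 29.4%, 32.8% and 31.2% of PSMB7 counts in the SPNS2 libraries, against 25.3%, 27.0% and 24.4% in the empty vector libraries. The mean was 31.1% ± 1.73 with SPNS2 and 25.6% ± 1.28 with the empty vector (SD, n = 3 each), a ratio of 1.22, and the groups did not overlap. PSMB8 counts were 2.20%, 0.684% and 2.63% of PSMB5 counts with SPNS2 and 1.31%, 1.55% and 1.11% with the empty vector, which overlapped. PSMB9 counts were 0% of PSMB6 counts in each SPNS2 library and 0.0495%, 0.127% and 0.600% in the empty vector libraries. These ratios were not tested.

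The promoters of the inducible subunits and of PSMB5, the standard partner with a window, are shown because interferon acts on the inducible genes through short elements near their start. That of PSMC3 was added after its values were seen. RefSeq windows of 300 bases on GRCh38.p14, from 250 before to 50 after the start, matched 42 of the 48 symbols in 51 windows. Capitals mark matches, on either strand, to an interferon response core (GAAA, any 2 bases, GAAA), a gamma activated site (TTCNNNGAA) or an antioxidant response core (TGACNNNGC), the element bound by NFE2L1 and NFE2L2.
PSMB10, chr16:67936801-67937100, minus strand: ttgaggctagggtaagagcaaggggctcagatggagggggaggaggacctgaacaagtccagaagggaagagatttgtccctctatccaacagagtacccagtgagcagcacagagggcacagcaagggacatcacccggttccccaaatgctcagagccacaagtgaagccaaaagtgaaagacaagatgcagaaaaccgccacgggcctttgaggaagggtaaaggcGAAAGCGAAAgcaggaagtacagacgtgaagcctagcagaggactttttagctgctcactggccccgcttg
PSMB8, start nearer the gene, chr6:32843998-32844297, minus strand: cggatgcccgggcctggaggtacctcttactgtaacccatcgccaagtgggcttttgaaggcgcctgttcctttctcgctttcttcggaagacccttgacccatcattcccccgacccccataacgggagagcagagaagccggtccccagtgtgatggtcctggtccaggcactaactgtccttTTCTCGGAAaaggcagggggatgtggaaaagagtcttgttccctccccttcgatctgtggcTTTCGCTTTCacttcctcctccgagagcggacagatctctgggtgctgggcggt
PSMB8, start farther out, chr6:32844630-32844929, minus strand: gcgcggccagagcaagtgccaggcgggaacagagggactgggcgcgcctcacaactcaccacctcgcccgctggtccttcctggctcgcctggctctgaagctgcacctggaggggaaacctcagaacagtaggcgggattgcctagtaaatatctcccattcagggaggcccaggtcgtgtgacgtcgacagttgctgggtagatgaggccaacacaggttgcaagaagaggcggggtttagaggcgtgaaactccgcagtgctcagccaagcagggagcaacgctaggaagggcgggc
PSMB9, chr6:32853942-32854241, plus strand: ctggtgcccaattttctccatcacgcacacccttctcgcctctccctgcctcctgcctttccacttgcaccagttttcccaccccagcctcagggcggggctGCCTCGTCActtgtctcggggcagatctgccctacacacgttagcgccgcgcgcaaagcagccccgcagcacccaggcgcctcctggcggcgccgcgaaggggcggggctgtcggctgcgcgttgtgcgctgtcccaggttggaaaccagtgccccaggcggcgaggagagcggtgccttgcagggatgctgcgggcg
PSMB5, start nearer the gene, chr14:23034851-23035150, minus strand: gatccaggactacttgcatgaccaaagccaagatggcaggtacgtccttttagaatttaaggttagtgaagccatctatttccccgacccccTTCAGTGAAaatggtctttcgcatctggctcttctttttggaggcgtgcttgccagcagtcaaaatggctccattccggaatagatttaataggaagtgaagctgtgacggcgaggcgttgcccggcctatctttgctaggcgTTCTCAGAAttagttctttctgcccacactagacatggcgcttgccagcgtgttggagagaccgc
PSMB5, start farther out, chr14:23035171-23035470, minus strand: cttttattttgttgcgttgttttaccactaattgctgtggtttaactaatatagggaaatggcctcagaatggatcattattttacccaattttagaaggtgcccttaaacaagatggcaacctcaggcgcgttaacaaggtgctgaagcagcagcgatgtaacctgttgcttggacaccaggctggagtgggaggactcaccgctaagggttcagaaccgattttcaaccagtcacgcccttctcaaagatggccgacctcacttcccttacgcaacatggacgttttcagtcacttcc
PSMC3, the member with the largest fall, chr11:47426390-47426689, minus strand: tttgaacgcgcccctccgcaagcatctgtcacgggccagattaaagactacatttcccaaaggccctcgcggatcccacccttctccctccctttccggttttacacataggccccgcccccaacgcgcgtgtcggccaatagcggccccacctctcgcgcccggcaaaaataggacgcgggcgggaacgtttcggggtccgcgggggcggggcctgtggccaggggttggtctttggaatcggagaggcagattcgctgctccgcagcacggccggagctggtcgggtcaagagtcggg

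The interferon response core of PSMB10 begins 21 bases before the start and that of PSMB8 begins 4 bases before the nearer start. The core was in 4 of 6 windows of inducible genes, those of PSMB8, PSMB10, PSME1 and PSME2, in 2 of 32 windows of constitutive subunits (PSMA4 and PSMB4), and in 3.57% of all 35116 windows. PSMG4 held it too. PSMB9 and PSMB5 held no such match in these windows, and PSMC3 held none of the 3 motifs. The gamma activated site was in 5 of 32 constitutive windows, in 1 of 6 inducible windows (PSMB8) and in 7.66% of all windows. The antioxidant response core was in 7 of 32 constitutive windows (21.9%) and in 3 of 6 inducible windows (PSMB9, PSME1 and PSME2). It was also in 5 of 13 windows of other members (38.5%) and in 13.3% of all windows. Constitutive windows with this core or the gamma activated site include that of PSMC4. PSMC4, PSME1 and PSME2 have no levels here. Counts by gene take a match in any of its windows, so the share of all windows is not a like background for them. Among constitutive subunits with a window, 4 of 10 genes that fell held the antioxidant response core (PSMA4, PSMC5, PSMD1 and PSMD3). So did 2 of 15 that were not called (PSMB3 and PSMD12). These are matches of letters, not sites shown to be bound.

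Constitutive subunits as a class lay slightly lower with SPNS2. All 30 passed the low-count filter. Of these, 11 fell (36.7%), 0 rose and 19 were not called by edgeR, beside the 12.6% called lower among all tested features. DESeq2 also called 0 higher, and 0 were higher at an unadjusted p under 0.05. In edgeR, 4816 of all 13308 tested features had an unadjusted p under 0.05 in either direction. The median log2 fold change was -0.08, against 0.00 for all tested features, and 29 of 30 values were negative, against 49.3% of all tested features. In 19 of 30 each SPNS2 library lay below each empty vector library, beside 20.3% of tested features and 24.6% of those with a mean of at least 10 CPM.

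The call count of constitutive subunits depended on single libraries. It was 5 without SPNS2 library 1 or 2, 6 without SPNS2 library 3 or empty vector library 3, 7 without empty vector library 1 and 10 without empty vector library 2, while the median log2 fold change over these fits ranged from -0.09 to -0.07. Summed over the 30 genes, the level was 3416, 3409 and 3466 CPM in the SPNS2 libraries and 3649, 3610 and 3658 CPM in the empty vector libraries. The lowest empty vector library lay above the highest SPNS2 library, and the mean differed by -5.73%. In the SPNS2 libraries 28, 28 and 27 of the 30 subunits lay below their empty vector mean. In the empty vector libraries, which make up that mean, 15, 19 and 11 of the 30 did.

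**Figure D3:**
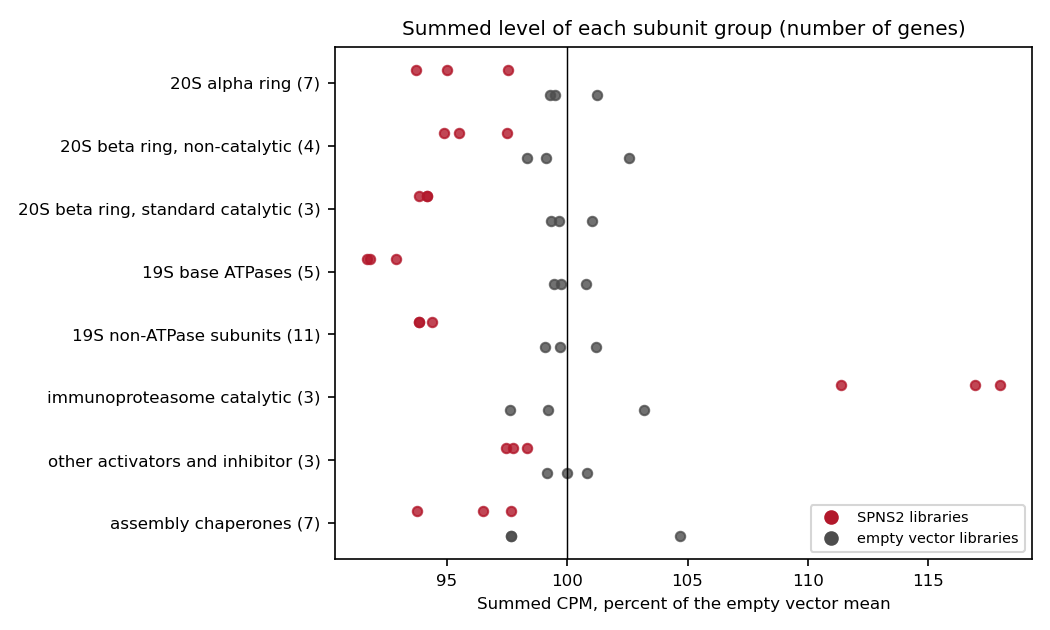
Summed CPM of each subunit group in each library, as a percentage of the empty vector mean (x axis), with the number of genes in brackets. The SPNS2 libraries lie below 100 in the constitutive groups and above 110 in the immunoproteasome group, which is almost wholly PSMB10.

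In the 19S cap, 9 of the 16 subunits with a PSM symbol and a row fell (56.2%) and the other 7 were not called. Over all tested features 12.6% were called lower, and 16.5% of those with a mean of at least 10 CPM. ADRM1 and SEM1, cap subunits outside the PSM symbols, did not pass (both -0.01). The calls of PSMC1, PSMD1, PSMD8 and PSMD14 were each lost in at least 5 of the 6 fits that left out 1 library. The median over all 16 was -0.10 on the log2 scale. Levels of these 16 summed to 1847, 1848 and 1861 CPM with SPNS2 and 2004, 1970 and 1975 CPM with the empty vector. The base of the cap holds ATPases that unfold the substrate and open the gate of the core. PSMC3, one of these ATPases, was at 125, 133 and 130 CPM with SPNS2 and 150, 145 and 144 CPM with the empty vector. It fell by 11.7%, the largest fall among the members (-0.18 on the log2 scale with an SE of 0.0321, adjusted p = 0.00218 by edgeR). PSMC5, another ATPase, was at 252, 249 and 255 CPM with SPNS2 and 280, 279 and 274 CPM with the empty vector, and fell by 9.36% (-0.14 on the log2 scale, adjusted p = 0.00174). Groups were separate for PSMC3 and PSMC5. On the opposite strand, FTSJ3 overlaps PSMC5, NRDE2 overlaps PSMC1, SIRT3 overlaps PSMD13 and AC009120.2 overlaps PSMD7. FTSJ3 held 4905, 4846 and 5170 counts with SPNS2 and 6407, 4464 and 5107 with the empty vector. The part of these overlaps in the changes was not tested.

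Other ATPases moved less. PSMC1 was at 98.8, 93.3 and 97.8 CPM with SPNS2 and 104, 102 and 103 CPM with the empty vector. Its call was narrow (log2 fold change -0.10, adjusted p = 0.0454) and was absent in 10 of 14 alternatives, including the one that added its pseudogene rows (-0.08, adjusted p = 0.0614). PSMC1P1, one of them, held 81, 163 and 161 counts with SPNS2 and 173, 147 and 36 with the empty vector. PSMC2 did not pass, at -0.07 on the log2 scale (adjusted p = 0.137). PSMC6 was the only constitutive subunit with a positive value, 0.02 (95% interval -0.05 to 0.09, adjusted p = 0.666).

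The non-ATPase cap subunits form the scaffold, the ubiquitin receptors and the lid. PSMD7, the lid partner of the deubiquitinase PSMD14, was at 94.9, 92.4 and 92.8 CPM with SPNS2 and 104, 106 and 104 CPM with the empty vector. It fell by 10.9% (-0.17 on the log2 scale with an SE of 0.0282, adjusted p = 0.00155 by edgeR). PSMD14, which cuts ubiquitin chains from the substrate, was at 109, 111 and 113 CPM with SPNS2 and 117, 121 and 117 CPM with the empty vector (log2 fold change -0.09, adjusted p = 0.0420). Both genes had separate groups, but the PSMD14 call was absent in 9 of 14 alternatives.

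Other lid and scaffold subunits fell by similar amounts. PSMD3, a lid subunit, was at 172, 173 and 167 CPM with SPNS2 and 192, 180 and 183 CPM with the empty vector (log2 fold change -0.12, adjusted p = 0.0168). PSMD13, also of the lid, was at 149, 145 and 154 CPM with SPNS2 and 167, 161 and 159 CPM with the empty vector (-0.12, adjusted p = 0.0186). In both, no SPNS2 library reached the lowest empty vector library. PSMD8, another lid subunit, was at 113, 113 and 114 CPM with SPNS2 and 124, 118 and 124 CPM with the empty vector (-0.11, adjusted p = 0.0248). PSMD1, a large scaffold subunit of the base, was at 48.0, 47.2 and 48.3 CPM with SPNS2 and 52.7, 50.1 and 51.5 CPM with the empty vector (-0.11, adjusted p = 0.0383). Leaving out 1 library ended the call of each of these 4 genes in at least 1 case: SPNS2 library 1 or 3 for PSMD3, SPNS2 library 1 or 2 or empty vector library 1 for PSMD13, any library but empty vector library 2 for PSMD8 and PSMD1. PSMD12, a lid subunit, was at 56.3, 54.8 and 55.7 CPM with SPNS2 and 57.8, 62.4 and 58.3 CPM with the empty vector, with separate groups but an adjusted p of 0.0794 by edgeR. PSMD12 (-0.10), PSMD6 (-0.07), PSMD11 (-0.06), PSMD2 and the ubiquitin receptor PSMD4 (both -0.04) did not pass.

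The 20S core gave fewer calls than the cap, with 2 of 14 subunits lower (14.3%) and 12 not called. That share is near the background, where 12.6% of all tested features and 16.5% of those with a mean of at least 10 CPM were called lower. The core's median was -0.07 on the log2 scale. The difference between cap and core was not tested. All 14 values were negative, from -0.15 to -0.01. Core levels summed to 1570, 1561 and 1605 CPM with SPNS2 and 1646, 1640 and 1682 CPM with the empty vector. Among the 7 alpha subunits, which form the gated outer rings, PSMA4 fell by 8.89%, with 106, 104 and 109 CPM with SPNS2 and 115, 114 and 121 CPM with the empty vector (-0.13 on the log2 scale with an SE of 0.0334, adjusted p = 0.0135 by edgeR). That call was absent without SPNS2 library 2 (adjusted p = 0.0625) or empty vector library 3 (0.0563). PSMA7 was at 202, 206 and 208 CPM with SPNS2 and 219, 213 and 217 CPM with the empty vector, just short of the threshold (-0.07, adjusted p = 0.0543). PSMA5 was at 94.0, 91.4 and 98.2 CPM with SPNS2 and 103, 96.5 and 101 CPM with the empty vector, and its groups overlapped. PSMA1 and PSMA5 (both -0.08), PSMA3 (-0.06), PSMA2 (-0.03) and PSMA6 (-0.02) did not pass. Of the 4 non-catalytic beta subunits 0 passed in edgeR or DESeq2. In edgeR 1 of them (PSMB1) had an unadjusted p under 0.05, beside 4816 of 13308 tested features in either direction. Among the 4, PSMB3 (-0.11, adjusted p = 0.172) had the largest value and PSMB4 (-0.01) the smallest. PSMB3 was at 94.5, 105 and 105 CPM with SPNS2 and 111, 101 and 116 CPM with the empty vector, so that its groups overlapped.

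Assembly chaperones and alternative activators showed single changes. PSMG1, which pairs with PSMG2 to start the alpha ring, was at 51.7, 52.0 and 51.2 CPM with SPNS2 and 55.6, 56.0 and 59.8 CPM with the empty vector. It fell by 9.58% (-0.15 on the log2 scale with an SE of 0.0360, adjusted p = 0.0132 by edgeR). Its partner PSMG2 did not pass (-0.02, 95% interval -0.10 to 0.07), with 42.1, 40.3 and 41.8 CPM with SPNS2 and 41.9, 40.2 and 43.6 CPM with the empty vector. PSMG4 was at 18.1, 17.4 and 19.2 CPM with SPNS2 and 18.9, 19.4 and 21.2 CPM with the empty vector, and these overlapped. PSMG4 (-0.12, adjusted p = 0.178) and PSMG3 (-0.01), a further chaperone pair of the alpha ring, did not pass. The chaperones of the ATPase base, PSMD9 (-0.08), PSMD5 (-0.04) and PSMD10 (0.04), did not pass.

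PSME3, the nuclear activator related to PSME1 and PSME2, was at 135, 132 and 131 CPM with SPNS2 and 138, 141 and 145 CPM with the empty vector. Its call was the narrowest of the members (log2 fold change -0.09, adjusted p = 0.0496 by edgeR) and was absent in 10 of 14 alternatives. PSME4, an activator without ATPase activity, was at 97.4, 97.1 and 96.1 CPM with SPNS2 and 94.8, 98.0 and 96.1 CPM with the empty vector (0.01, 95% interval -0.05 to 0.07). PSMF1, an inhibitor of the isolated core, was at 0.00 on the log2 scale (95% interval -0.06 to 0.07). PSMA8, an alpha subunit of the testis, had 0 counts in all 6 libraries, and PSMB11, the catalytic subunit of the thymus, had 1 count in all. In all, 6 of the 14 called members held their call in every alternative run: PSMB10, PSMB6, PSMC3, PSMC5, PSMD7 and PSMG1.

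Genes that act around the proteasome were taken as lists. Of 12 partners outside the PSM symbols, 1 fell (8.33%, below the 12.6% of all tested features) and 11 were not called, and the median change was 0.00 on the log2 scale. UCHL5, a deubiquitinase of the cap, was at 56.4, 56.0 and 57.2 CPM with SPNS2 and 63.0, 63.9 and 64.0 CPM with the empty vector. It fell by 11.1% (-0.17 on the log2 scale with an SE of 0.0296, adjusted p = 0.00196 by edgeR). USP14, the other cap-bound deubiquitinase (-0.07, adjusted p = 0.150), UBLCP1, a proteasome phosphatase (0.14, adjusted p = 0.216), and ECPAS, which tethers core and cap (0.05, adjusted p = 0.253), did not pass. Neither did ADRM1 (-0.01) and SEM1 (-0.01), cap subunits whose symbols fall outside the PSM series, or the core chaperone POMP (0.01).

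Of 9 regulators of proteasome genes, 2 rose (22.2%, beside 11.9% of all tested features and 13.6% of those with a mean of at least 10 CPM) and 7 did not pass. The median was 0.02 on the log2 scale. NFE2L1, the transcription factor that raises proteasome genes when proteasome activity drops, was at 213, 208 and 204 CPM with SPNS2 and 223, 214 and 221 CPM with the empty vector. The groups were separate, but NFE2L1 did not pass (log2 fold change -0.08, 95% interval -0.14 to -0.02, adjusted p = 0.0688 by edgeR). NGLY1, the glycanase that processes NFE2L1 on its way to the nucleus, was at 66.0, 64.4 and 63.2 CPM with SPNS2 and 54.7, 59.1 and 59.2 CPM with the empty vector and rose (log2 fold change 0.16 with adjusted p = 0.00976). SQSTM1, an autophagy receptor for ubiquitinated proteins, was at 89.7, 95.3 and 95.1 CPM with SPNS2 and 80.3, 79.3 and 86.3 CPM with the empty vector and rose (0.19, adjusted p = 0.00531). NFE2L3 (-0.20, adjusted p = 0.140), DDI2 (-0.04), the protease that cleaves NFE2L1, and NFE2L2 (0.03) did not pass.

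Most called genes upstream of the inducible subunits were higher with SPNS2. Of 10 tested interferon signalling genes, 5 rose, 1 fell and 4 were not called, where 11.9% of all tested features and 13.6% of those with a mean of at least 10 CPM were called higher. Their median was 0.09 on the log2 scale, and IRF9 was not analysed here. DESeq2 called 3 of these higher. IRF1, the transcription factor that binds the interferon response core, was at 43.7, 40.4 and 41.3 CPM with SPNS2 and 31.2, 30.8 and 29.2 CPM with the empty vector (log2 fold change 0.46, adjusted p = 4.21e-05 by edgeR). STAT2 was at 71.8, 74.8 and 74.3 CPM with SPNS2 and 65.6, 59.2 and 59.2 CPM with the empty vector (0.26, adjusted p = 0.00127). In both genes the groups were separate, with SPNS2 higher. JAK2, a kinase of the interferon gamma receptor, rose by 0.34, and IRF8, a myeloid interferon regulatory factor, fell by 0.58 on the log2 scale, with 9.75, 9.52 and 9.94 CPM in SPNS2 libraries and 14.7, 15.6 and 13.5 CPM in empty vector libraries. NLRC5, which activates class I and immunoproteasome genes, did not pass (-0.05, 95% interval -0.32 to 0.22).

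The list on peptide supply to class I molecules also holds genes of the class I molecule itself (HLA-B, HLA-C, HLA-E and B2M), CALR and PDIA3. It gave 7 rises among 9 tested genes, with 2 not passing and a median of 0.22 on the log2 scale. The share called higher over all tested features was 11.9%. TAP1 rose by 1.33 (adjusted p = 0.00380 by edgeR), HLA-B by 0.58, TAPBP by 0.50, ERAP2 by 0.26 and ERAP1 by 0.22 on the log2 scale. B2M rose by 0.18 and CALR by 0.07, while HLA-E (0.09) and PDIA3 (-0.03) did not pass. TAP1 is a low-count row, and HLA rows can divide reads among near-identical genes. HLA-C had 0 counts in each SPNS2 library and 0, 0 and 3 in the empty vector libraries, and like TAP2 it was not tested. TAP1, TAPBP, HLA-B, HLA-C and HLA-E lie on chromosome 6. The part of read assignment there in these rises was not tested. Beside the rises of this list, PSMB10 at 0.21 was of the size of ERAP1. Of 6 ubiquitin and E1 enzyme genes, 0 passed in edgeR or DESeq2, from -0.08 for UBA6 to 0.02 for UBB, with a median of -0.03. At an unadjusted p under 0.05, 2 of them (UBA1 and UBA6) were lower in edgeR. Of all 13308 tested features, 4816 had such a p in either direction. Of 9 shuttle and VCP complex genes, 2 fell (22.2%) and 7 were not called, against a background of 12.6% called lower overall and 16.5% at a mean of at least 10 CPM. That share is near the background. The median of the 9 was -0.04. RAD23B, which carries ubiquitinated proteins to the cap, was at 122, 122 and 120 CPM with SPNS2 and 129, 132 and 131 CPM with the empty vector, and the groups were separate. Its log2 fold change was -0.11 (edgeR, adjusted p = 0.0128), and the unfoldase VCP fell as well (-0.10, adjusted p = 0.0273). The VCP call was absent in 6 of 14 alternatives. FAF1 (-0.06) and UBQLN4 (0.04) did not pass.

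**Figure D4:**
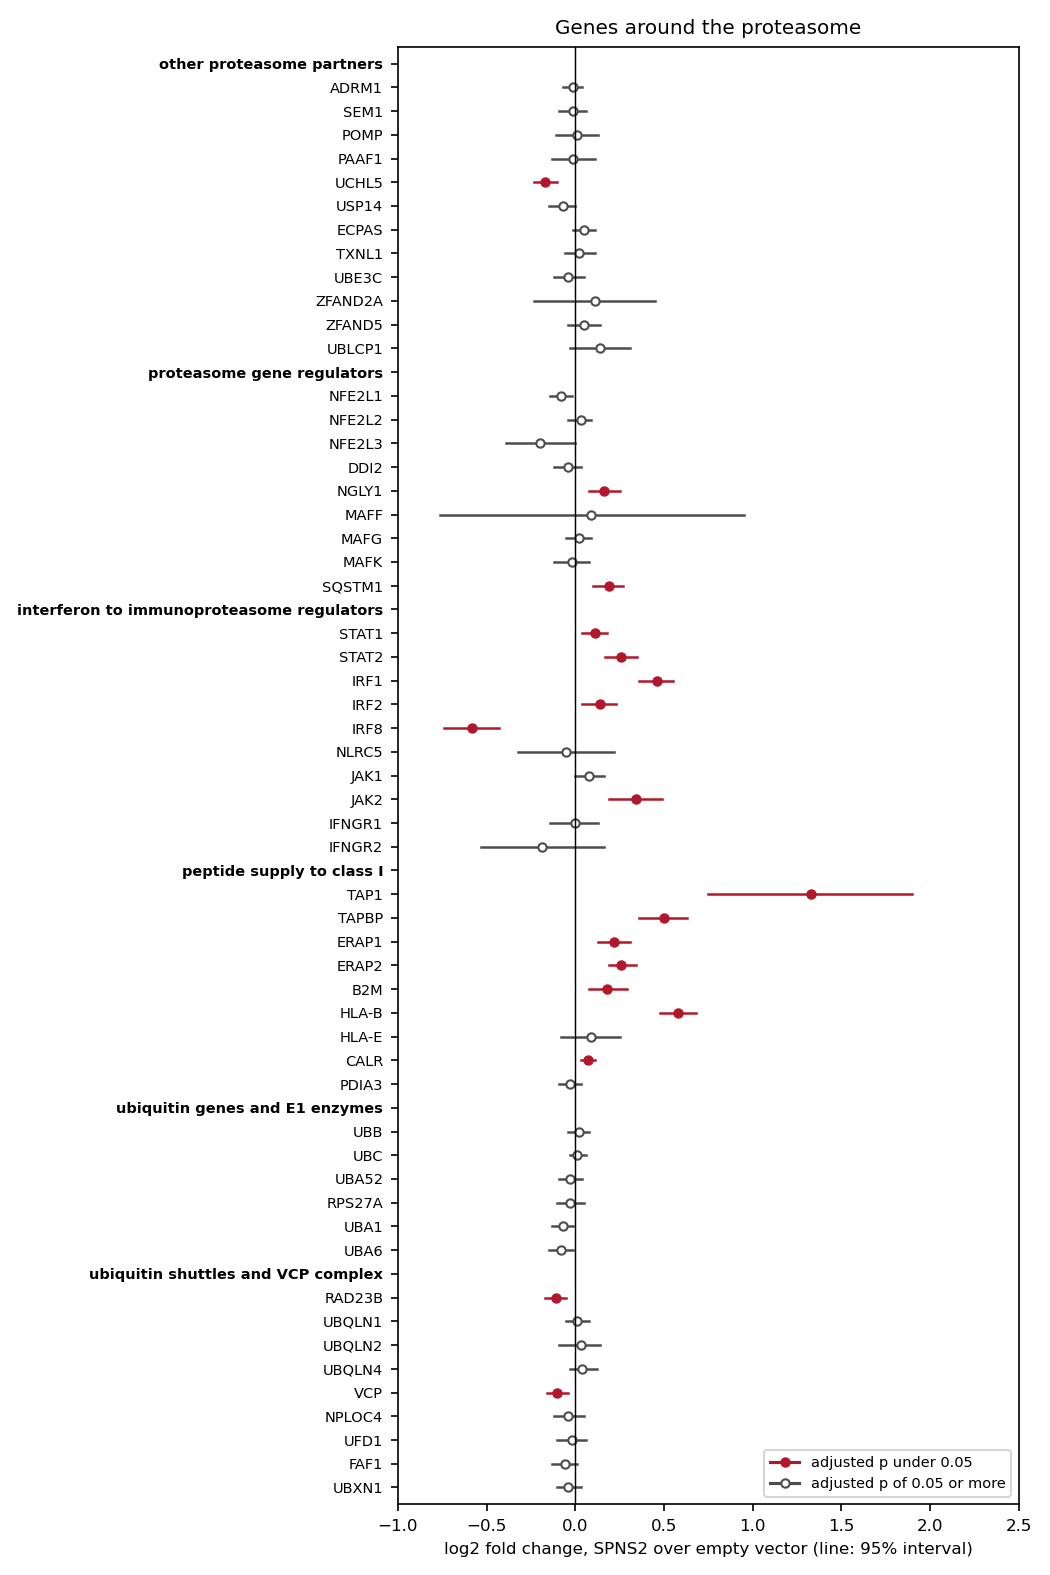
Log2 fold change of SPNS2 over empty vector (x axis) for tested genes around the proteasome, by list, with 95% intervals as lines and filled points for calls. Filled points of the class I list and most of the interferon list lie right of 0, IRF8 lies left at -0.58, and those of the shuttle list lie left of 0.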

How the data were processed

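RNA of 6 ME-1 libraries was measured as polyadenylated RNA, prepared with a stranded TruSeq kit per the labels' protocols. The authors deposited estimated counts per gene, made with Salmon per the submitters' processing notes; the sources used here name no version, genome build or annotation for it. The deposited values were whole numbers (0 values were not whole). Each library's total limits precision: a count of 0 allows up to 0.0779 to 0.105 CPM per library, for counting error only. Gene IDs were paired with symbols through a names table (34369 of 34370 Ensembl rows matched), and gene type and exon overlaps were read from GENCODE 29. Replicates of a group differed beyond sampling noise (chi-square per degree of freedom 3.02 to 5.84), and all were kept as separate samples.

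Groups followed the sample titles, 3 SPNS2 and 3 empty vector libraries. The test was the quasi-likelihood test of edgeR 4.0.16 in R 4.3.3 with group as the only term, after filterByExpr (at least 10 counts, total at least 15) and TMM normalization (0.993 to 1.01). P-values were adjusted by Benjamini-Hochberg over 13308 features. Standard errors were derived from the F statistic. CPM used TMM-scaled library sizes. The biological coefficient of variation was 4.32%. The pipeline was tested on simulated data. Alternatives were RLE and upper quartile factors, DESeq2 1.42.0, limma voom (limma 3.58.1), other filters, a replicate block and leaving out each library; adding to a member the rows that overlap it on the same strand, and to PSMC1 its pseudogene rows with over 10 counts, was chosen after seeing the data, as was the background at a mean of 10 CPM.

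Named with all libraries were the inducible subunits, their standard partners, called members and further members with the largest changes; in each list up to 4 genes with the smallest p were to be named, and others named were chosen after their values were seen. The members and lists were chosen with earlier results of these data known, so counts over them carry no p-value. Some genes of these lists are not reported here, and the list counts leave them out.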

Additional observations from a re-analysis of the deposited data

How the results depend on the processing

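PSMB10, PSMB6, PSMC3, PSMC5, PSMD7 and PSMG1 kept their direction and call in all 14 alternatives, and 8 called members lost the call in at least 1; no result reversed. The median log2 fold change of constitutive subunits stayed between -0.09 and -0.07, and the median of all features between 0.001 and 0.016. The median of the inducible PSMB8 and PSMB10 was 0.31 and ranged from 0.13 to 0.49 when 1 library was left out. Leaving out 1 library gave 7 to 12 called members in place of 14, 6 to 11 lower in place of 13 and 1 to 2 higher in place of 1. It gave 5 to 10 constitutive subunits called, all lower, in place of 11, and 1 to 2 inducible subunits called higher in place of 1. Fewer libraries also lowered the count over all features, from 3263 to between 2246 and 2738. Without a low-count filter 2 inducible subunits were called, 1 of them lower: PSMB9, with 13 counts in all. DESeq2 called 2543 features and 10 members, 8 of them constitutive.

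Same-numbered libraries had correlations of -0.00943, 0.0312 and -0.0262 of their deviations from the group means. These gave low-count features the same weight as others, so they cannot settle whether the replicate numbers pair the libraries. With the replicate block 9 members were called, 8 of them lower, with 7 constitutive subunits called, all lower. The block also lowered the count over all features to 2723, with 1422 lower, in place of 3263 with 1683 lower.

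PSMB8 and PSMB9 had at most 82 counts per library, so counting error limits what can be said of them; why their counts were low was not tested.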
